A study of Homo sapiens with 24 samples.

Results

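J82 CD44 Low cells were compared with the parental J82 cells they are named after, across all genes of the deposited count table. J82 is an established human bladder cancer line. Of the 24 RNA-seq libraries of the series, 6 enter the comparison, 3 of CD44 Low cells and 3 of parental cells. The other 6 J82 libraries, 3 of CD44 High and 3 of CD44v6 cells, share in the estimate of the spread, and RT-112, another bladder cancer line with the same 4 groups of 3, serves to ask whether a change differed between lines. The submitters give the parental cells as the control, the CD44 Low cells as a line with little CD44 receptor, and the libraries of each group as biological replicates. How the CD44 Low line was obtained from J82, whether it is a clone or a sorted population, and how long it was kept apart from the parental cells are not given in the sources used here, so CD44 level and any other difference between the lines cannot be told apart. No drug or other treatment is named for any library.

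CD44 is a cell surface glycoprotein that binds hyaluronan, a sugar polymer of the extracellular matrix. Its standard form and its splice variants, among them the forms with variant exon v6, act as adhesion receptors and as partners of growth factor receptors, and the ERM proteins ezrin, radixin and moesin link its tail to the actin cortex. In bladder epithelium CD44 marks the basal cells, and carcinoma cells with much CD44 are often described as stem-like. Gene counts do not separate its splice forms.

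Total counts ran from 16752825 to 22890589 over the 12 J82 libraries, and levels are given as CPM, counts scaled to the size of the library and not corrected for gene length. The labels were checked against marker genes. VIM, CDH2 and FN1, mesenchymal genes, had at least 3786 counts in each of the 6 libraries, whereas the epithelial genes ESRP1 and GRHL2, the basal keratin KRT5 and the luminal markers UPK2 and KRT20 were at 0 counts in all 6. Other markers of these classes were read. The epithelial CDH1 had 46 to 113 counts and EPCAM 14 to 49, the luminal PPARG 359 to 776 and the mesenchymal ZEB1 848 to 1750. The luminal GATA3 had at most 15 counts in a library, and the basal KRT14 and TP63 at most 9 and 4. Of the leukocyte, endothelial and fibroblast markers, CD3E, LYZ, CDH5 and DCN were at 0 in all 6, PTPRC had at most 3 counts in a library and PECAM1 at most 2. CD14 had 22 to 30 counts in CD44 Low and 6 to 16 in parental libraries, and VWF 9 to 33 and 6 to 11, with adjusted p = 0.311 and 0.543, while the fibroblast markers LUM and COL3A1 had at least 257 and 10216 counts in every library. In wider lists 2 of 14 leukocyte and 5 of 10 endothelial markers had enough counts to be tested, and none passed the edgeR test (1 leukocyte marker was lower at an unadjusted p under 0.05 and 1 by DESeq2). The CD44 Low libraries varied more among themselves than the parental ones, with a biological coefficient of variation of 0.214 against 0.0809. CD44 Low replicate 2 stood apart in mitochondrial and transfer RNA. Its 13 mitochondrial protein genes summed to 9632 CPM, against 2855 and 4354 CPM in the other CD44 Low libraries and 3892 to 4860 CPM in the parental ones. Its transfer RNA genes summed to 825 CPM, against 40.4 to 130.1 CPM in the other 5 libraries. In CD44 High replicates 1, 2 and 3 these genes summed to 157, 140 and 37.5 CPM, and in CD44v6 to 109, 156 and 29.9 CPM. Replicate 3 was the lowest in each derived J82 line. None of the 13 mitochondrial protein genes and none of the 77 transfer RNA genes passed the edgeR test over all genes, with 5 and 54 of them at an unadjusted p under 0.05, and DESeq2 called none of the 13.

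CD44 itself was lower in the CD44 Low cells, by 1.6-fold. It stood at 312, 275 and 255 CPM in the CD44 Low libraries and at 493, 399 and 452 CPM in the parental ones, and the groups did not overlap. The log2 fold change was -0.68 (SE 0.17, adjusted p = 0.0329; edgeR quasi-likelihood test over all genes, as for every adjusted p below). CD44 High cells held 734 ± 32.6 CPM and CD44v6 cells 806 ± 239.5 CPM (SD, n = 3 each), and the CD44 Low cells lay below both, by a log2 difference of -1.39 (adjusted p = 0.00012) and -1.52 (adjusted p = 7.9e-05). In RT-112 the CD44 Low change was -1.20, and the difference between the lines was 0.50 (SE 0.23, adjusted p = 0.345). The call against parental cells rested on all 6 libraries, because leaving out any 1 of them left a log2 fold change of -0.77 to -0.60 with an adjusted p of 0.058 to 0.131.

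**Figure D1:**
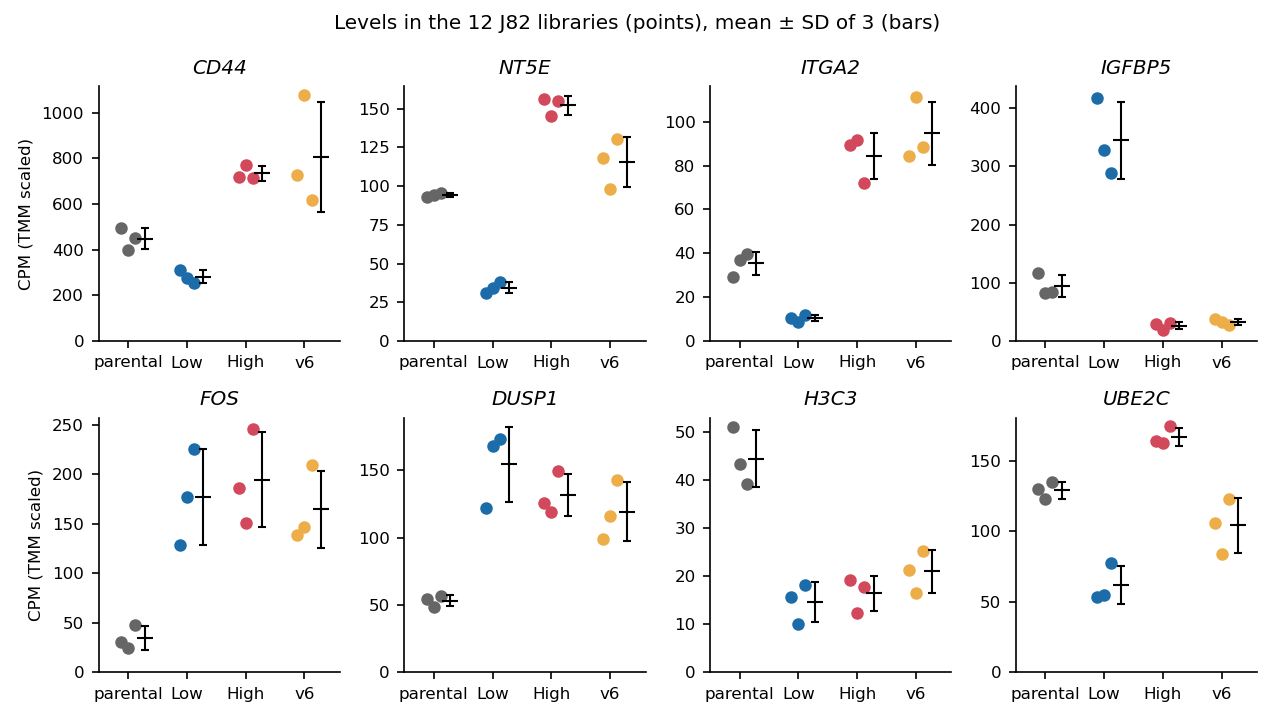
Levels of 8 genes in the 12 J82 libraries, in CPM after scaling, with points for libraries and bars for the mean and SD of the 3 libraries in each group. CD44, NT5E and ITGA2 were lowest in the CD44 Low cells and IGFBP5 highest there, whereas FOS, DUSP1 and the histone gene H3C3 had moved from the parental level in all 3 derived lines.

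Of the other 12 measured genes of the CD44 and hyaluronan list, CEMIP2, a cell surface hyaluronidase, rose to 184, 166 and 152 CPM from 108, 102 and 99.9 CPM (log2 fold change 0.69, adjusted p = 0.0038). HMMR, a hyaluronan-binding protein of the mitotic spindle, fell by 0.63 on the log2 scale (adjusted p = 0.04), and radixin (RDX) fell by 0.37 (adjusted p = 0.0396). The other ERM genes, EZR and MSN, stood at log2 fold changes of -0.26 and -0.36, which did not pass the test. HMMR and RDX were each called in 1 of the 6 fits that left out a library.

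Across the table, 852 of 15951 genes tested (5.34%) passed an adjusted p of 0.05. Of these, 360 (2.26%) were higher and 492 (3.08%) lower in the CD44 Low cells, with a median log2 fold change of 0.74 among the former and -0.67 among the latter. More than a 2-fold change was seen for 103 of the higher and 125 of the lower genes. Against the same parental libraries, 2.94% of the genes tested were called in CD44 High and 2.6% in CD44v6 cells. In none of the 852 did the CD44 Low and parental libraries overlap, as was also so for 33.1% of all genes tested. The count depended on the libraries: it was 367, 312 and 369 without parental replicate 1, 2 or 3, 425 and 477 without CD44 Low replicate 1 or 2, and 965 without CD44 Low replicate 3. Lower calls outnumbered higher ones in each of those fits, but with only the 6 libraries in the fit 820 genes were higher and 681 lower.

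**Figure D2:**
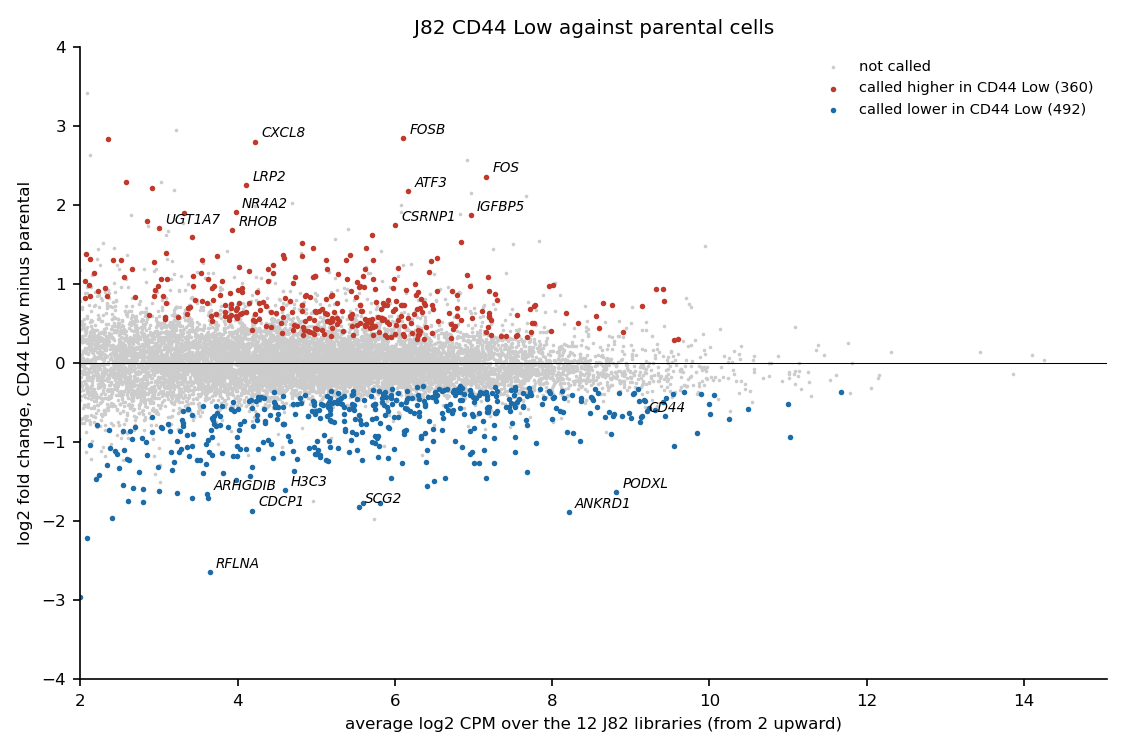
Log2 fold change of each gene, CD44 Low minus parental, against its average log2 CPM over the 12 J82 libraries, with called genes in colour. The 4489 genes under an average of 2, 58 of them called (STC1, COL6A3 and CDH1 among them), and another 7 genes beyond 4 in either direction, none of them called, are not drawn, though the counts in the legend include them; FOSB, CXCL8 and FOS lie highest and RFLNA lowest among the labelled genes.

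The 12 largest decreases (average log2 CPM 3 or more) included receptors, an integrin and regulators of the cytoskeleton, and 11 of the 12 were also lower than in both the CD44 High and the CD44v6 cells (8.83% and 6.18% of all genes tested in the single contrasts). The genes were chosen by their level in the same CD44 Low libraries that the direct tests use, so nothing is read from that count. RFLNA, which encodes an actin and filamin regulator, fell from 7.71, 7.45 and 9.89 CPM in parental cells to 0.899, 0.705 and 2.42 CPM, the largest change of the 12 (log2 fold change -2.64, SE 0.34, adjusted p = 0.00063). ITGA2, the alpha-2 integrin subunit of the collagen receptor, fell from 29.4, 37.0 and 39.6 CPM to 10.5, 8.84 and 11.6 CPM (-1.78, SE 0.16, adjusted p = 0.0001). PODXL, the sialomucin podocalyxin, fell from 403, 323 and 397 CPM to 134, 90.4 and 139 CPM (-1.63, SE 0.17, adjusted p = 0.00021). In all of them the highest CD44 Low library lay below the lowest parental one. The transmembrane Src substrate CDCP1 (-1.87), the ephrin receptor EPHB2 (-1.71), the GTPase regulator ARHGDIB (-1.66), the secretory granule protein SCG2 (-1.82), the starch-digesting enzyme MGAM (-1.78) and the ligand WNT7A (-1.71) fell by similar amounts. CDCP1 stood 1.49 above parental on the log2 scale in CD44 High cells and 1.47 above in CD44v6 cells, and ITGA2 1.26 and 1.42 above. These contrasts use the same parental libraries. The other members of the 12 are ANKRD1, IGFBP4 and the histone gene H3C3, described with their groups. Of the 12, IGFBP4 lost its call in 3 of the 6 fits that left out a library and the other 11 kept theirs in all 6.

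The 12 largest increases included 6 immediate-early genes. FOSB, FOS, ATF3, NR4A2, CSRNP1 and RHOB are of this class, which cells switch on within minutes of a stimulus, and CXCL8 encodes a neutrophil-attracting chemokine. For these 7 genes and for the clock gene PER1, no difference from CD44 High or CD44v6 cells passed the direct test. The 12 also held LRP2, IGFBP5 and UGT1A7, which did differ from both, and the pseudokinase gene TRIB1, which differed from CD44 High cells only. LRP2, the endocytic receptor megalin, rose to 47.6, 44.5 and 42.0 CPM from 9.999, 8.17 and 9.83 CPM (2.26, SE 0.20, adjusted p = 0.0001). It stood at -0.97 in CD44 High and 0.12 in CD44v6 cells against the same parental libraries. UGT1A7, a glucuronidating enzyme, rose to 22.4, 17.02 and 21.6 CPM from 8.39, 3.53 and 6.66 CPM (1.71, adjusted p = 0.0112). It shares exons with the other UGT1A genes, so its count is uncertain. Of the 12 increases, ATF3 lost its call in 4 of the 6 fits that left out a library. PER1 and CSRNP1 each lost theirs in 2 and UGT1A7 in 1, and the others kept theirs in all 6.

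**Figure D3:**
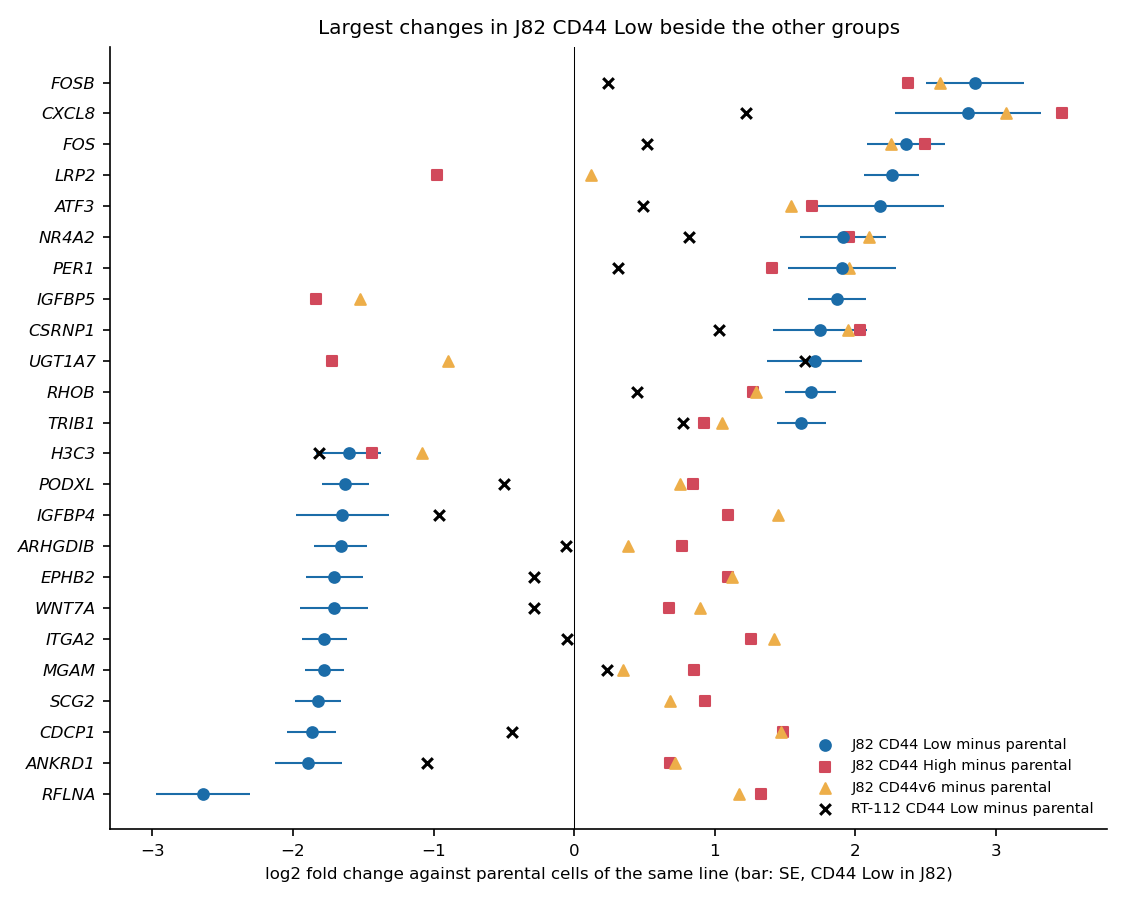
Log2 fold change against parental cells for the 12 largest increases and the 12 largest decreases of J82 CD44 Low cells (circles with SE), beside the values of the other derived J82 lines and of CD44 Low cells of RT-112; a missing symbol means that the gene was not tested in RT-112. For 11 of the 12 decreases the CD44 High and CD44v6 symbols lie above 0, while FOSB, FOS, ATF3 and other immediate-early genes lie to the same side in all 3 J82 lines.

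The replication-dependent histone genes, which supply histones to newly copied DNA and are transcribed mainly during S phase, were lower as a group. Of 55 tested, 45 fell, where 3.08% of all genes tested did, none rose (2.26%) and all 55 had a log2 fold change below 0. None was higher at an unadjusted p under 0.05 or by DESeq2 either. The median log2 fold change was -0.90 against 0.00 over all genes tested. Their summed level was 4352, 4671 and 5206 CPM in CD44 Low cells and 8232, 8702 and 8282 CPM in parental cells. H3C3 fell from 50.9, 43.3 and 39.1 CPM to 15.7, 10.03 and 18.1 CPM (-1.60, SE 0.23, adjusted p = 0.0014). H2BC18 fell from 202, 201 and 206 CPM to 59.2, 74.0 and 120.3 CPM (-1.27, SE 0.22, adjusted p = 0.0056), H4C13 by 1.43 and H2AC16 by 1.37 on the log2 scale. These genes encode core histones H3, H2B, H4 and H2A in turn, and each group kept apart from the parental libraries. H1-2, H1-3 and H1-4, linker histones, fell by 0.90, 1.05 and 0.67. Histone genes are near copies of each other, so the count of any single one is uncertain. Most of these transcripts end in a stem-loop in place of a poly(A) tail, and the sources used here do not say how RNA was selected for the libraries. The count of 45 was 27 to 32 without any 1 of parental replicates 1, 2 and 3 or CD44 Low replicates 1 and 2 (30, 29, 29, 27 and 32 in that order), and 46 without CD44 Low replicate 3. Against the same parental libraries, 9 of the 55 were called lower in CD44 High cells (median -0.45) and 5 in CD44v6 cells (median -0.44), where 1.23% and 0.74% of all genes tested were. In the direct tests 12 were lower in CD44 Low than in CD44 High cells (8.83% of all genes tested) and 14 lower than in CD44v6 cells (6.18%). In RT-112, 49 of 55 were called lower in CD44 Low cells (median -0.76), where 1.87% of all genes tested were, and none of the 55 differed between the lines by edgeR (5 at an unadjusted p under 0.05).

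Histone promoters are known for the CCAAT box and the octamer ATTTGCAT, and promoters of mitotic genes for CCAAT boxes with the CHR element TTTGAA. Letters were searched on both strands of the 250 bases before the start of each gene in the RefSeq promoter table (GRCh38.p14), which held 10961 of the 15951 genes tested. CCAAT was found in 84.3% of 51 histone promoters and 35.5% of all, and the octamer in 43.1% and 1.41%. Among the 43 promoters of called histone genes the shares were 81.4% and 41.9%, so they describe the gene class and not the change. The 5 promoters below were picked as examples, by no rule, from genes that fell, with every match to the motifs of their group in capitals, on either strand. No capitals are shared by overlapping matches. H3C3, the histone gene with the largest decrease, holds 4 CCAAT matches (chr6:26045134-26045383, plus strand), and H2BC7, which fell by 1.25, holds 3 and 1 octamer (chr6:26199266-26199515, plus strand).
H3C3: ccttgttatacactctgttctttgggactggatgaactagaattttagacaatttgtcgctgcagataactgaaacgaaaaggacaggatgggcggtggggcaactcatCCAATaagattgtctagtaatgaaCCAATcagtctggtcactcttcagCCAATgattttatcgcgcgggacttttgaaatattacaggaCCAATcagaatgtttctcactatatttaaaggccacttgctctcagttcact
H2BC7: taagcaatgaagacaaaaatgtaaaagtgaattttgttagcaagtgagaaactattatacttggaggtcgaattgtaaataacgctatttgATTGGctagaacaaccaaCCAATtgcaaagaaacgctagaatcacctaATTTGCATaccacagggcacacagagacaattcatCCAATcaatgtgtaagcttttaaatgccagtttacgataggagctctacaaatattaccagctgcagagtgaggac
CDK1, the kinase that drives entry into mitosis, holds 1 CCAAT and 1 TTTGAA match (chr10:60778081-60778330, plus strand), and TOP2A, which untangles DNA, holds 4 and 2 (chr17:40417897-40418146, minus strand).
CDK1: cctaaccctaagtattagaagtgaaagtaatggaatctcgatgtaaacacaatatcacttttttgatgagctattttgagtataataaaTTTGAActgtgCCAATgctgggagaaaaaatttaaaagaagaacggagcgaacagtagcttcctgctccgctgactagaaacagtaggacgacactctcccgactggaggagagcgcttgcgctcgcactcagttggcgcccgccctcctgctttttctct
TOP2A: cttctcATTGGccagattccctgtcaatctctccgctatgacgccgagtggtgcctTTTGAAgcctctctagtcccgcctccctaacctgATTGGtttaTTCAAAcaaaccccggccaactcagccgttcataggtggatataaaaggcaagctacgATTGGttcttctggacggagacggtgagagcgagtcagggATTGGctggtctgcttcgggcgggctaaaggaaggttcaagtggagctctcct
ANKRD1, a target of the YAP coactivator and its DNA-binding partner TEAD, holds 2 matches to GGAATG, the TEAD letters (chr10:90921088-90921337, minus strand).
ANKRD1: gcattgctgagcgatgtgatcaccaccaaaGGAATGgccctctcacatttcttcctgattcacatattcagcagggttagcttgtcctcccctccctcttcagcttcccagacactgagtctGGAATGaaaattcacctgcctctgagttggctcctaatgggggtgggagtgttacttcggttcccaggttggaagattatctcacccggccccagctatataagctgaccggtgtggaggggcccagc
A match is a run of letters and was not tested as a binding site.

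Genes of mitosis were lower in smaller steps. Of 45 tested, 16 fell and none rose, also not at an unadjusted p under 0.05 or by DESeq2, with a median of -0.38, and 41 of the 45 were below 0. Beside these counts, 3.08% of all genes tested fell and 2.26% rose. CDK1 fell from 87.5, 95.6 and 89.8 CPM to 45.2, 46.2 and 50.4 CPM (-0.94, SE 0.14, adjusted p = 0.0017). UBE2C, which marks mitotic proteins for destruction, fell from 129.9, 123 and 135 CPM to 53.5, 55.1 and 77.3 CPM (-1.06, SE 0.15, adjusted p = 0.0014). TOP2A fell by 0.89 and the kinase AURKB by 0.68. The libraries of the 2 groups did not overlap for any of these, and all 4 were also lower than in CD44 High and in CD44v6 cells. The proliferation marker MKI67 stood at a log2 fold change of 0.12, the kinase PLK1 at -0.05 and the cyclin CCNB1 at -0.36, none of which passed the test. TTTGAA was found in 51.3% of 39 mitotic promoters and 8.59% of all, and CCAAT in 79.5%. Among the 13 promoters of called mitosis genes the shares were 46.2% and 76.9%. The count of 16 was 7, 5 and 6 without parental replicate 1, 2 or 3, 8 and 5 without CD44 Low replicate 1 or 2, and 19 without CD44 Low replicate 3. Of the 45, 28 were lower in CD44 Low than in CD44 High cells (8.83% of all genes tested), and 7 were lower (6.18%) and 2 higher (3.4%) than in CD44v6 cells. In RT-112, 12 of 45 fell, where 1.87% of all genes tested did.

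The DNA replication list moved less, with 5 of 46 genes lower, none higher (0 at an unadjusted p under 0.05 and 0 by DESeq2) and a median of -0.21. Beside these counts, 3.08% of all genes tested were lower and 2.26% higher. RRM1 and RRM2, the subunits of ribonucleotide reductase, which makes deoxynucleotides and is a target of gemcitabine, fell from 637, 675 and 625 CPM to 399, 472 and 434 CPM (-0.57, adjusted p = 0.0018) and from 183, 179 and 174 CPM to 110.4, 112.5 and 128 CPM (-0.61, adjusted p = 0.0015). GINS1 and CDC45, parts of the replicative helicase, fell by 0.48 and 0.39. The sliding clamp PCNA stood at -0.02. RRM1 and RRM2 were lower than in both other derived J82 lines. Without a library the count ran from 2 (parental replicate 2 or 3, CD44 Low replicate 1) to 9 (CD44 Low replicate 3), with 3 without parental replicate 1 or CD44 Low replicate 2.

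Among G1 regulators, CCND1, cyclin D1, fell from 710.4, 689 and 703 CPM to 344, 320.2 and 349.6 CPM (-1.05, SE 0.08, adjusted p = 4.6e-05), with tight groups. In CD44 High and CD44v6 cells it stood at 0.55 and 0.42 above the same parental libraries. CDKN2B, the CDK4 and CDK6 inhibitor p15, rose to 119, 115 and 122 CPM from 74.7, 72.1 and 68.0 CPM (0.73, adjusted p = 0.001), and stood at -0.98 and -0.50 in CD44 High and CD44v6 cells against the same libraries. The cyclins CCNE2 and CCND3 fell by 0.52 and 0.41. Of the 19 genes of this list, 3 fell and 2 rose, beside 3.08% and 2.26% of all genes tested. The 3 lower calls were 1 without any single library other than CD44 Low replicate 3.

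Immediate-early genes were higher as a group. Of 34 tested, 19 rose and none fell (1 at an unadjusted p under 0.05, 0 by DESeq2), with a median log2 fold change of 1.03. Beside these counts, 2.26% of all genes tested rose and 3.08% fell. FOS rose to 129, 178 and 226 CPM from 30.6, 25.1 and 48.2 CPM (2.36, SE 0.28, adjusted p = 0.0004), and FOSB to 96.5, 90.4 and 119 CPM from 14.6, 7.01 and 20.8 CPM (2.85, SE 0.35, adjusted p = 0.0005). DUSP1, a phosphatase that switches MAP kinases off, rose to 122, 168 and 173 CPM from 54.1, 48.8 and 56.8 CPM (1.54, SE 0.16, adjusted p = 0.00021). The libraries of the 2 groups stayed apart for all of these. JUN (0.74), JUNB (1.29), JUND (1.11), EGR1 (1.30), ATF3 (2.17) and the nuclear receptor gene NR4A3 (2.83) also rose. ATF3 ranged from 58.2 to 142 CPM within the CD44 Low libraries and lost its call in 4 of the 6 fits that left out a library, and NR4A3 in all 6. FOSL1 stood at -0.65 and FOSL2 at -0.17, which did not pass. Against the same parental libraries, 17 of the 34 rose in CD44 High cells (median 1.14) and 17 in CD44v6 cells (median 1.10), where 1.71% and 1.86% of all genes tested did. In the direct tests, 2 were higher and 3 lower in CD44 Low than in CD44 High cells (6.9% and 8.83% of all genes tested). Against CD44v6 cells 2 were higher and 1 lower (3.4% and 6.18%). In RT-112, 8 of 33 rose (median 0.38), where 1.33% of all genes tested did, and 5 of the 34 differed between lines. Without parental replicate 2 the count of 19 was 11, and it was 13 to 16 without any other single library. A time of harvest or a medium change is not given for any group, so a difference in handling and a difference between the lines cannot be told apart.

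The NF-kB response and chemokine list, which holds genes induced by inflammatory signals, was split. CXCL8 rose to 7.19, 22.7 and 26.7 CPM from 2.33, 3.09 and 2.70 CPM (2.80, SE 0.52, adjusted p = 0.008), and the chemokine CXCL2 (2.21), the nuclear inhibitor NFKBIZ (1.33) and the adhesion molecule ICAM1 (0.50) rose as well. BIRC3, an inhibitor of apoptosis induced by NF-kB, fell from 22.0, 27.4 and 26.1 CPM to 10.2, 8.24 and 13.5 CPM (-1.24, SE 0.18, adjusted p = 0.0017), and TNIP1 fell by 0.60. The list thus had 4 genes higher and 2 lower of 26, with a median of 0.31, beside 2.26% and 3.08% of all genes tested. Against the same parental libraries 13 were higher in CD44 High and 14 in CD44v6 cells, where 1.71% and 1.86% of all genes tested were, with BIRC3 at 1.12 and 1.03. In the direct tests 9 of the 26 were lower and 1 higher in CD44 Low than in CD44 High cells (8.83% and 6.9% of all genes tested), and 8 were lower than in CD44v6 cells (6.18%). The 4 higher calls were 2 and 1 without parental replicate 1 or 2, and 6 without CD44 Low replicate 1. CXCL2 kept its call in 1 of the 6 fits that left out a library and NFKBIZ in 4, while CXCL8 and BIRC3 kept theirs in all 6. None of the 36 interferon response and antigen presentation genes passed the edgeR test against parental cells (median 0.09), with 6 higher and 1 lower at an unadjusted p under 0.05 and 2 called higher by DESeq2. In the direct tests 8 of the 36 were higher and 2 lower than in CD44 High cells (6.9% and 8.83% of all genes tested). Against CD44v6 cells 11 were higher and none lower (3.4% and 6.18%). In CD44v6 cells 6 were lower and 1 higher than in parental cells (0.74% and 1.86%).

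**Figure D4:**
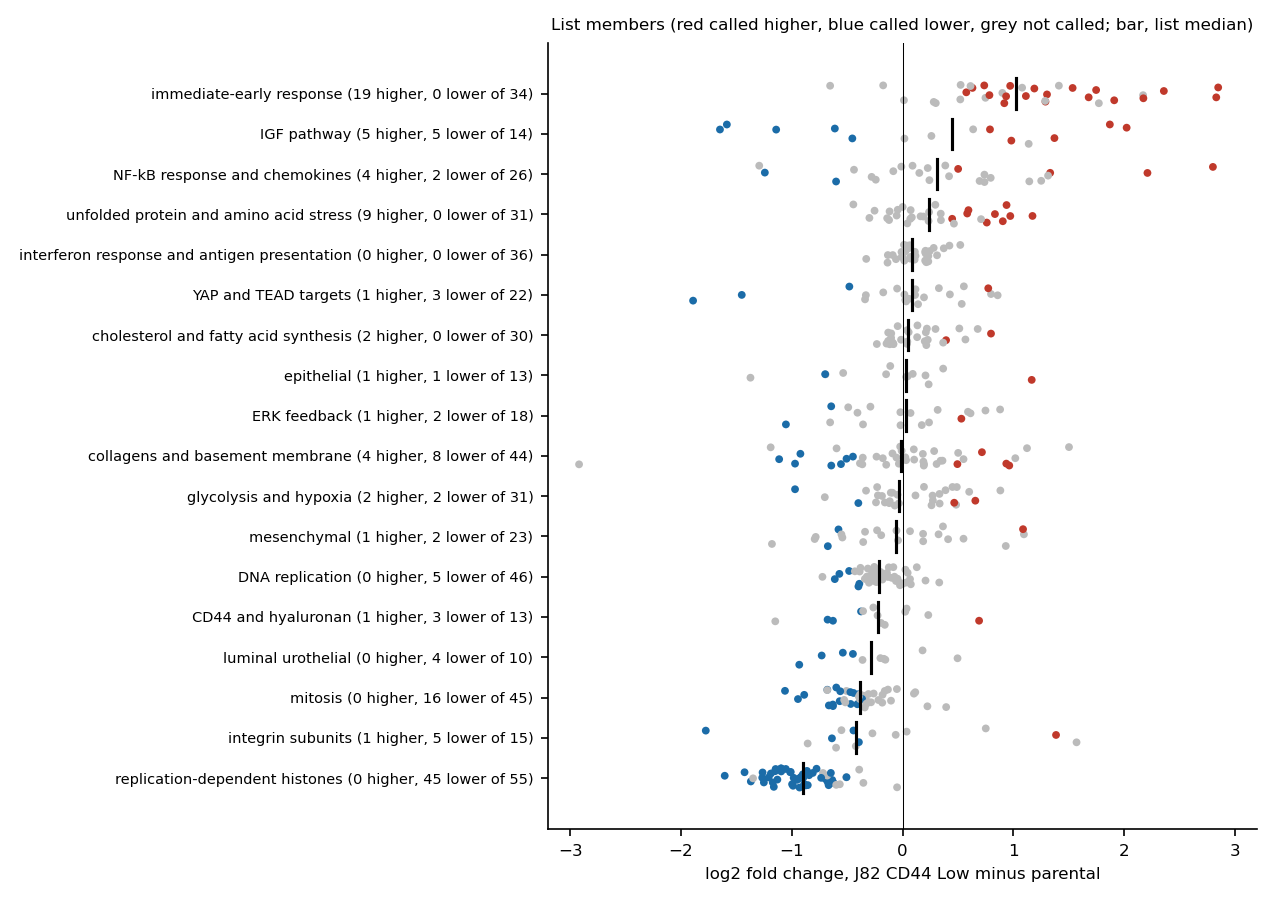
Log2 fold change, CD44 Low minus parental, of the tested members of 18 gene lists, each point a gene, coloured where called, with the list median as a bar; 4 members beyond 3.2 in either direction are not drawn. The histone genes lie below 0 (median -0.90) and most immediate-early genes above it (median 1.03).

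Genes of the insulin-like growth factor pathway moved in both directions, 5 up and 5 down of 14 tested, beside 2.26% and 3.08% of all genes. The binding protein gene IGFBP5 rose to 418, 328 and 289 CPM from 116, 82.7 and 84.0 CPM (1.87, SE 0.21, adjusted p = 0.00027), whereas it stood at -1.84 in CD44 High and -1.53 in CD44v6 cells against the same parental libraries. The binding protein genes IGFBP2, IGFBP4, IGFBP6 and IGFBP7 fell by 1.59, 1.65, 0.61 and 1.14. On the receptor side, IRS2, an adaptor of the insulin and IGF receptors, rose by 1.37, the scavenger receptor IGF2R by 0.98 and the insulin receptor INSR by 0.79, while IGF1R stood at 1.14 without passing the test. STC1, an inhibitor of the protease that cuts IGFBP4, rose from 0.538, 0.883 and 0.529 CPM to 3.32, 2.33 and 2.30 CPM (2.02, adjusted p = 0.0181), and STC2 fell by 0.45. The 5 higher calls were 1 to 3 without any single library other than CD44 Low replicate 3, and the 5 lower calls 2 or 3 without any of them but CD44 Low replicate 1, which left 4.

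Integrins are paired receptors that bind matrix. Of 15 subunits tested, ITGA2, ITGA3, ITGA6, ITGB1 and ITGAM fell and ITGB4 rose, beside 3.08% and 2.26% of all genes tested. ITGB1, the beta subunit shared by the collagen, laminin and fibronectin receptors, fell from 661, 772 and 693 CPM to 525, 555 and 538 CPM (-0.39, adjusted p = 0.0149). ITGA6, a laminin receptor subunit and basal cell marker, fell from 131, 155 and 146 CPM to 95.7, 88.7 and 93.6 CPM (-0.64, adjusted p = 0.0013). Its partner in hemidesmosomes, ITGB4, rose by 1.39 from levels of 1.93 to 3.32 CPM to 5.20 to 9.78 CPM, a call kept in 2 of the 6 fits that left out a library. ITGAM, known from myeloid cells, had 0 counts in all 3 CD44 Low libraries and 30 summed over the parental ones, which makes it at least 9.04-fold lower with a floor of 3 counts over the group. The alpha subunits ITGA5 (-0.55), ITGA1 (-0.42) and ITGAV (-0.06) did not pass. The 5 lower calls were 3 without parental replicate 3 and 4 or 5 without any other single library. In the direct tests 8 of the 15 were lower and 1 higher in CD44 Low than in CD44 High cells (8.83% and 6.9% of all genes tested), and 9 were lower than in CD44v6 cells (6.18%).

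Of 44 collagen and basement membrane genes, 4 rose and 8 fell, with a median of -0.01, beside 2.26% and 3.08% of all genes tested. The fibrillar collagen genes COL3A1 and COL1A2 rose, COL3A1 to 1107, 1265 and 969 CPM from 605, 600.0 and 540.1 CPM (0.94, SE 0.11, adjusted p = 0.00049) and COL1A2 by 0.96, as did COL12A1 (0.72) and the laminin chain LAMB2 (0.50). COL6A3 (-3.65), COL6A1 (-0.92), COL4A1 (-0.51), COL4A2 (-0.56) and LAMA4 (-0.64) fell, and so did the collagen-modifying enzymes P4HA2 (-0.97) and PLOD2 (-0.45). COL6A3 was read in 1 of the CD44 Low libraries only, at 0.542 CPM, against 2.11 to 2.85 CPM in parental cells. The 4 higher calls were 2 without any single library other than CD44 Low replicate 3, and the 8 lower calls 5 without parental replicate 2 or 3. COL3A1, COL1A2 and LUM are also fibroblast markers, and 3 of 5 such markers tested rose, their summed level being 1073 to 1395 CPM in CD44 Low and 599.9 to 674 CPM in parental cells, with DCN at 0 and PDGFRA at most 1 count in a library. Their 3 calls were 1 without parental replicate 1 or 3. Whether other cells contributed was not tested.

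Among proteases and their inhibitors, PLAU and PLAT, the plasminogen activators of urokinase and tissue type, fell from 36.4, 35.3 and 33.3 CPM to 20.2, 21.2 and 20.2 CPM (-0.77, adjusted p = 0.0014) and by 1.08. The inhibitors SERPINE2 and TIMP3 fell by 0.56 and 0.45. The aggrecan- and versican-cutting proteases ADAMTS5 and ADAMTS1 rose by 1.46 and 0.76. The remaining 19 of the 25 tested, among them MMP2 (-0.78) and MMP14 (0.04), did not pass. The list thus had 2 genes higher and 4 lower, beside 2.26% and 3.08% of all genes tested. PLAU and PLAT stood above the same parental libraries in CD44 High cells, at 1.05 and 0.86, and in CD44v6 cells, at 0.81 and 1.10, and the direct tests called both lower in CD44 Low cells. The 4 lower calls of the list were 2 without parental replicate 2 or 3 or CD44 Low replicate 1 or 2, and the 2 higher calls were 1 without parental replicate 2 or 3.

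Targets of YAP and TEAD, which read cell shape and matrix stiffness, did not move together. ANKRD1 fell from 242, 249 and 297 CPM to 62.2, 53.9 and 96.5 CPM (-1.89, SE 0.24, adjusted p = 0.0006). NT5E, the ectonucleotidase CD73 that forms extracellular adenosine, fell from 92.7, 94.0 and 95.6 CPM to 30.9, 34.4 and 38.1 CPM (-1.45, SE 0.11, adjusted p = 4.6e-05), and tissue factor F3 fell by 0.48. CCN1 (0.86, adjusted p = 0.122) and CCN2 (0.80, adjusted p = 0.0602), commonly used as readouts of YAP, were not called, and the kinase NUAK2 rose by 0.77. The list had 1 gene higher and 3 lower of 22, with a median of 0.09, beside 2.26% and 3.08% of all genes tested. GGAATG was found in 37.5% of 16 promoters of the list and 9.32% of all. Within the adenosine pathway, the nucleoside transporter SLC29A1 and the receptor ADORA2B fell with NT5E, by 0.75 and 0.52, the 3 called members, and none of the 12 rose (0 at an unadjusted p under 0.05, 0 by DESeq2). NUAK2 kept its call in 1 of the 6 fits that left out a library, and the 3 adenosine calls were 1 without parental replicate 3.

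Urothelial and cell state genes changed in both directions, where 2.26% of all genes tested rose and 3.08% fell. Of 10 luminal genes, KRT7 fell from 1897, 2327 and 1805 CPM to 898, 1279 and 983 CPM (-0.93, SE 0.15, adjusted p = 0.0028), PPARG, a transcription factor of luminal cells, by 0.73, ERBB3 by 0.54 and KRT19 by 0.45. Of 11 basal genes, the keratin KRT17 rose to 125, 138 and 144 CPM from 75.8, 75.2 and 66.7 CPM (0.90, SE 0.15, adjusted p = 0.0041). The integrin subunits ITGB4 (1.39) and ITGA6 (-0.64), described above, were the other basal calls, so 2 of the 11 rose and 1 fell. CDH1, E-cadherin, rose from 2.33, 2.54 and 2.80 CPM to 6.01, 4.72 and 6.51 CPM (1.17, adjusted p = 0.0101), and MAL2 fell by 0.70, the only called genes among 13 epithelial ones. VIM fell from 381, 357 and 374 CPM to 213, 247 and 237 CPM (-0.67, SE 0.08, adjusted p = 0.00033), ZEB1, a repressor of CDH1, fell by 0.58, and WNT5A rose by 1.09, out of 23 mesenchymal genes. CDH2, N-cadherin, stood at -0.04 and FN1 at 0.37. Of these calls ERBB3 was lost in all 6 fits that left out a library, ZEB1 and MAL2 in 5, KRT19 in 4, CDH1 in 2 (without parental replicate 1 or 2) and WNT5A in 1 (without parental replicate 3). The 4 luminal calls were 2 or 3 in each of those fits.

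Among growth factor and developmental signals, 5 of 31 genes of the TGF-beta list, 5 of 26 of the WNT list, 2 of 13 of the EGFR list and 3 of 18 of the ERK feedback list were called in either direction, beside 5.34% of all genes tested. TGFBI, a matrix protein induced by TGF-beta, fell from 75.6, 82.8 and 66.2 CPM to 28.2, 27.97 and 23.4 CPM (-1.50, SE 0.16, adjusted p = 0.00025), and the receptor TGFBR2 fell by 0.86. The activin antagonist FST fell by 2.95 from at most 3.41 CPM, and the ligand TGFB3 (1.98) and the receptor ACVR1 (0.58) rose. Of 31 genes in that list 2 rose and 3 fell, and the 2 higher calls were 0 or 1 in each fit without a library other than CD44 Low replicate 3. Of the WNT ligands, WNT5A rose and WNT7A and WNT5B (-0.81) fell, the receptor FZD1 rose by 0.85 and the inhibitor DKK1 fell by 0.44, out of 26 genes. Of 13 genes of the EGFR family and its ligands, NRG1, the ligand of ERBB3, fell from 116, 115 and 117 CPM to 71.2, 69.4 and 55.4 CPM (-0.83, SE 0.12, adjusted p = 0.0015), and ERBB3 was the other call. EGFR stood at 0.35. Of 18 ERK feedback genes, which report activity of the ERK pathway, CCND1 and ETV5 (-0.64) fell and the ephrin receptor EPHA4 (0.53) rose, with DUSP6 at 0.17 and SPRY4 at -0.49.

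Of 31 genes of the unfolded protein and amino acid response, by which cells meet misfolded protein or a lack of amino acids, 9 rose and none fell (2 at an unadjusted p under 0.05, 0 by DESeq2), with a median of 0.24. Beside this list and those that follow, 2.26% of all genes tested rose and 3.08% fell. HSPA5, the main chaperone of the endoplasmic reticulum, rose to 896, 963 and 796 CPM from 539.9, 396 and 449 CPM (0.94, SE 0.21, adjusted p = 0.0243). SESN2 (0.97), NUPR1 (1.17), CTH (0.91), VLDLR (0.83) and TRIB3 (0.76) rose too, while ATF4 stood at 0.24 and ASNS at -0.44. That count was 2, 1 and 1 without parental replicate 1, 2 or 3, and 5, 3 and 5 without CD44 Low replicate 1, 2 or 3. In the BCL2 family the death-promoting BMF (2.22), BBC3, also called PUMA (1.60), and BCL2L11, also called BIM (1.35), rose out of 17 genes. The inhibitor of apoptosis BIRC3 (-1.24), counted in the same list, fell. The list had a median of -0.12, with 8 genes above 0 and 9 below. Its 3 higher calls were 0 to 2 without parental replicate 1, 2 or 3 (2, 0 and 1) and 2 without CD44 Low replicate 2 or 3. The survival genes BCL2, BCL2L1 and MCL1 stood at 0.21, -0.16 and 0.22. HMGCS1, of cholesterol synthesis, rose by 0.39, and 2 of the 30 genes of cholesterol and fatty acid synthesis rose in all. Of 31 glycolysis and hypoxia genes VEGFA (0.66) and NDRG1 (0.47) rose, and P4HA2 and PGAM1 (-0.40) fell. Of 26 glutathione and NRF2 target genes AKR1C3 (0.51), HMOX1 (0.49) and NFE2L2 (0.31) rose and TALDO1 (-0.40) fell, and these 3 higher calls were 0 or 1 in every fit that left out a library.

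Bladder cancer is treated with cisplatin and gemcitabine, and the drug list holds genes of drug transport and metabolism in general. Handling of either drug was not tested. ABCB1, the efflux pump P-glycoprotein, rose to 63.2, 60.4 and 61.4 CPM from 29.8, 26.8 and 29.4 CPM (1.11, SE 0.10, adjusted p = 0.0001), and stood at -0.76 and -0.61 in CD44 High and CD44v6 cells against the same parental libraries. SLC29A1, also the main carrier of gemcitabine into cells, fell from 43.8, 41.0 and 43.0 CPM to 20.6, 22.1 and 33.6 CPM (-0.75, adjusted p = 0.0253), a call kept in 1 of the 6 fits that left out a library. With UGT1A7 higher and RRM1, RRM2 and ERCC2 (-0.45), a helicase of nucleotide excision repair, lower, the list had 2 genes higher and 4 lower of 40. Beside these counts, 2.26% of all genes tested were higher and 3.08% lower. The kinase that activates gemcitabine, DCK, stood at -0.32 and the copper and cisplatin transporter SLC31A1 at 0.14. Of 15 stem-like genes 4 rose and none fell (2 at an unadjusted p under 0.05, 1 by DESeq2), among them KLF4 (0.94), HES1 (0.87) and SOX4 (0.73). For KLF4 and HES1 no difference from the other derived lines passed the direct test. The 4 lower calls of the drug list were 2 without any parental library or CD44 Low replicate 1, 3 without CD44 Low replicate 2 and 7 without CD44 Low replicate 3, and the 4 stem-like calls were 2 without parental replicate 2 or 3.

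Of the 111 genes named by the rule, 73 differed in the direct tests from both the CD44 High and the CD44v6 cells and 26 from neither. Because the rule used the same CD44 Low libraries, these counts are a description only, and the single contrasts called 15.7% and 9.58% of all genes tested. Of the 111, 57 kept their call in all 6 fits that left out a library.

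The CD44 Low change differed between J82 and RT-112 for 185 of 17438 genes (1.06%), counted in a fit of all 24 libraries. It was the higher one in J82 for 53 genes (0.304%) and the lower one for 132 (0.757%). Of the 852 genes called in J82, 116 were among them. Cyclin D1 was one, with a log2 fold change of -1.05 in J82 and -0.11 in RT-112 and a difference of -0.98 (adjusted p = 0.00026). KIF5C, a kinesin motor, fell in J82 from 22.0, 23.7 and 28.5 CPM to 15.3, 11.2 and 17.04 CPM (-0.77, a call kept in 2 of the 6 fits that left out a library), whereas it rose in RT-112 (1.22, adjusted p = 0.00815). FLRT2, a cell adhesion protein, rose in J82 (0.97) and fell in RT-112 (-0.88). The scaffold SLC9A3R2 fell by 1.46 in J82 and stood at 0.38 in RT-112. All 4 luminal genes that fell in J82 differed between the lines, with RT-112 values of 0.10 for KRT7, 0.08 for PPARG, 0.42 for ERBB3 and 0.40 for KRT19. NT5E was lower in both lines, by 1.45 and 1.97 on the log2 scale, with a difference of 0.48 that did not pass (adjusted p = 0.33). The count of 185 was 97 to 117 without parental replicate 1, 2 or 3 of J82 (117, 97 and 114), and 106, 111 and 105 without RT-112 parental replicate 1 or 2 or RT-112 CD44 Low replicate 1.

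By chromosome, the genes tested on chromosome 19 had the highest median log2 fold change of chromosomes 1 to 22 and X, at 0.14, with 40 higher and 6 lower calls among 989 genes (4.04% and 0.607%), beside 2.26% and 3.08% of all genes tested. The median was 0.13, 0.08, 0.18 and 0.14 over 4 equal runs of its genes in map order. Against the same parental libraries it was -0.18 in CD44 High and -0.11 in CD44v6 cells. The others of these chromosomes had medians from -0.08 (chromosome 11) to 0.04 (chromosome 13). Chromosome 9, with a median of 0.02, had a similar share of higher calls, 4.21% (27 of 642 genes), and 1.87% lower calls. The 20 genes of chromosome Y stood at 0.15 and the 33 of the mitochondrial genome at 2.29, where CD44 Low replicate 2 stood apart in mitochondrial RNA. No test was made, because genes of 1 chromosome are not replicates, and DNA copy number was not tested.

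**Figure D5:**
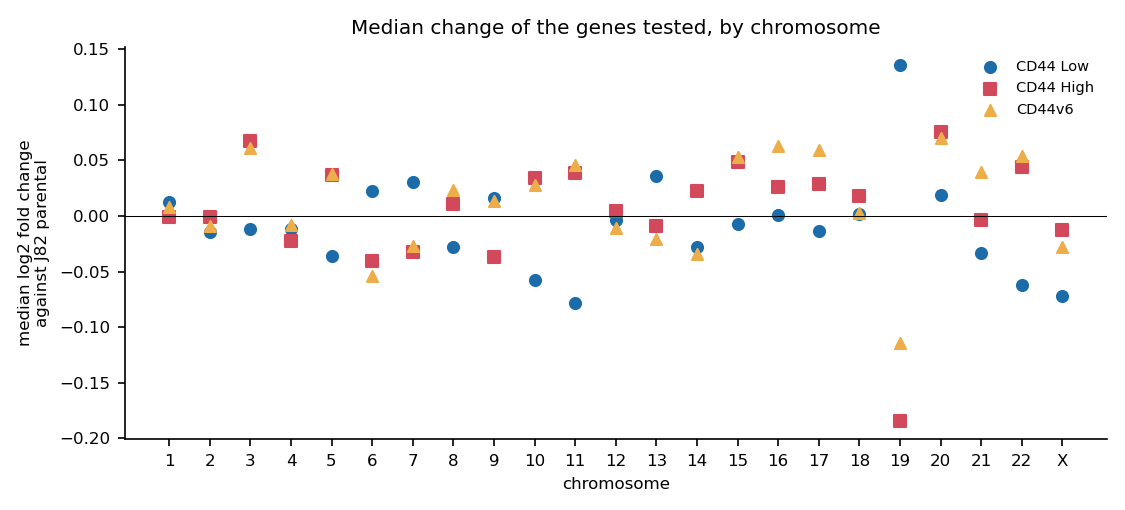
Median log2 fold change against J82 parental cells of the genes tested on each of chromosomes 1 to 22 and X, for the 3 derived lines. Chromosome 19 stands at 0.14 in CD44 Low and at -0.18 and -0.11 in the other derived lines, outside the range of the other chromosomes drawn.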

How the data were processed

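RNA-seq libraries of J82 and RT-112 cells were read from a table of gene counts deposited by the authors: whole-number counts of reads per gene symbol, not normalized. HISAT2, StringTie and GRCh37 are named in the submitters' processing notes; their order, versions and the counting settings, annotation and strand are not given in the sources used here, so overlapping and antisense genes cannot be told apart. All 24 columns matched samples by title. From the counts, genes were kept by filterByExpr (15951 of 35993), scaled by TMM and tested with edgeR 4.0.16 (quasi-likelihood, 12 J82 libraries, group means, R 4.3.3). P-values were adjusted by Benjamini-Hochberg over all genes tested, two-sided, with calls at 0.05. "Direct tests" compare CD44 Low with CD44 High or CD44v6 in the same fit. The difference between lines was tested as an interaction over 24 libraries (17438 genes). CPM uses TMM-scaled library sizes. Scripts were tested on simulated data. DESeq2 1.42.0 served as an alternative.

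Named were CD44, the 12 largest increases and decreases among called genes (average log2 CPM 3 or more, groups not overlapping), up to 4 called members per list with the largest change, and 4 interaction genes in each direction. Other list members were added after their values were seen. The members and lists were chosen with earlier results of these data known. Some genes that met the rule are not reported here. Replicate pairs differed by more than sampling noise, with a chi-square per degree of freedom of 25.4 to 40.4 in CD44 Low and 6.03 to 7.99 in parental libraries. Coordinates of promoters are those of RefSeq on GRCh38.p14, not of the build used for counting.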

Additional observations from a re-analysis of the deposited data

Results flagged for a closer look

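The change from parental to CD44 Low cells differed between J82 and RT-112 for 185 genes in a test of the difference itself, and 29 of the named genes were among them. Each value below is the J82 change minus the RT-112 change on the log2 scale.

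Among those that fell in J82 and had a negative difference were BIRC3 (-2.13), MGAM (-2.04), KIF5C (-2.02), SLC9A3R2 (-1.87), ITGA2 (-1.75), IGFBP2 (-1.73), ARHGDIB (-1.64), EPHB2 (-1.46), WNT7A (-1.46), CDCP1 (-1.45), TGFBI (-1.37), PODXL (-1.16), KRT7 (-1.07), P4HA2 (-1.02), ERBB3 (-0.994), CCND1 (-0.975), KRT19 (-0.88), PPARG (-0.846) and PGAM1 (-0.486). Genes that rose in J82 and had a positive difference were HMCN1 (2.97), FOSB (2.58), FOS (1.81), FLRT2 (1.81), ITGB4 (1.81), NUAK2 (1.79), RHOB (1.2), CDH1 (1) and FZD1 (0.985). The change had opposite signs in the lines for 16 of the 29. The genes were chosen by their J82 change or by this difference, so nothing is read from that count. Of these, only KIF5C, FLRT2, NUAK2, ERBB3 and KRT19 passed the test in RT-112. Several others lay near 0 there, such as P4HA2 (0.02), PGAM1 (0.06) and PPARG (0.08).

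BIRC3 stood at 0.83 in RT-112 CD44 Low cells against their parental cells (adjusted p = 0.376), NUAK2 at -1.04 (0.0429), ITGB4 at -0.46 (0.0791) and HMCN1 at -1.85 (0.177). Of these only NUAK2 passed the test in RT-112. BIRC3, NUAK2 and HMCN1 had low levels in those RT-112 libraries, at most 4.68, 5.70 and 1.75 CPM, so their values rest on few reads. FOSB stood at 0.24 and FOS at 0.52 there. PODXL moved the same way in both lines, at -0.50 in RT-112.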

How the results depend on the processing

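The 852 genes called (360 higher, 492 lower) became 1451 with DESeq2 (664 and 787), 1501 with the 6 libraries alone (820 and 681) and 1907 with a replicate block on the 6 libraries (1065 and 842). Other scalings, other filters, all 24 libraries and a replicate block on the 12 J82 libraries gave 643 to 1132. Leaving out single libraries gave 312 to 965 in all, 98 to 351 higher and 214 to 614 lower. Those fits also had fewer samples, and the effect of sample number was not tested apart from that of the library left out. CD44 stayed between -0.70 and -0.67 and past the threshold in all 9 fits with every library of both groups, and ranged from -0.77 to -0.60 without single libraries, in none of which it passed. The 185 genes that differed between lines were 189 with median-of-ratios scaling, 213 with a mean of at least 50 counts and 97 to 270 without single libraries. No value changed sign, but with the 6 libraries alone higher calls outnumbered lower ones, also with the block. Named genes lost their call in 188 of 660 fits without a library and in 30 of 984 other fits; list counts moved by over 1.5 times in 150 of 408 and 97 of 612.

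The replicate numbers were checked for pairing: deviations of same-numbered CD44 Low and parental libraries correlated at 0.05, 0.03 and 0.05, none over 0.1, so the libraries were taken to share only a number. Each CD44 Low library correlated best with the parental library of its own number, which is a hint from the data and not from the design. Between CD44 Low and CD44 High libraries of the same number the correlations were 0.04, 0.11 and 0.23, and between CD44 Low and CD44v6 0.06, 0.08 and 0.38, so not every pair was over 0.1 there either. Between CD44 High and CD44v6 libraries each was over 0.1, at 0.11, 0.11 and 0.25, with at most 0.015 for unlike numbers. Libraries of the same number may thus share more than a number. The main fit, which holds these libraries, has no block and called 852 genes, against 1132 with a replicate block on the 12 J82 libraries. A replicate block on the direct tests, added after seeing the data, gave 1206 genes higher and 1504 lower than in CD44 High cells (1100 and 1408 without it) and 639 and 1062 against CD44v6 cells (542 and 986). With it CXCL8 was lower than in CD44 High cells (-0.73, adjusted p = 0.048) and TRIB1 higher than in CD44v6 cells (0.56, adjusted p = 0.0078), neither called without it, while FOSB, FOS, ATF3, NR4A2, CSRNP1, RHOB and PER1 again differed from neither line. Of the 34 immediate-early genes, 5 were then lower than in CD44v6 cells in place of 1, beside 6.66% of all genes tested. Of the 111 named genes 76 then differed from both lines and 23 from neither. The replicate block left CD44 at -0.67 with 6 libraries and -0.68 with 12, and the difference between lines at 185 genes.

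Depth limits the lowest genes, such as ITGAM, FST and COL6A3, whose levels rest on few reads.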
